A study of Drosophila melanogaster with 3 samples.

Results

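Isolated HA-Ubx peaks are the bound regions of Ultrabithorax (Ubx) that stand alone on the 4 large autosomal arms of the fly genome, 2L, 2R, 3L and 3R. A peak was counted as isolated when its midpoint lay more than 15 kb from the midpoint of every other peak of the same arm. The members were thus chosen by measured peak positions alone, and their distances below are a description of that choice. By this rule 495 of the 8123 peaks on these arms were isolated, which is 6.09% (Wilson 95% interval 5.59% to 6.64%), and the whole deposited list held 10337 peaks. Chromatin immunoprecipitation followed by sequencing, which recovers the DNA a tagged protein sits on, was carried out in S2-DRSC cells, a fly line that the labels describe as derived from late embryos. All groups shared 1 genotype, a stable transfection with HA-tagged Ubx, and all cells had received 10 micromolar copper sulphate for 24 h. The groups were an immunoprecipitation with an antibody against HA, with 2 replicates, and an input with 1 sample. The promoter that drives the transgene, whether the line is a single clone and whether the replicates came from separate cultures are not given in the labels.

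Ubx is a Hox transcription factor that sets the identity of segments in the posterior thorax and anterior abdomen, and in the fly it is best known for directing haltere instead of wing development. Its homeodomain recognises short AT-rich sequences, and cofactors such as Extradenticle and Homothorax sharpen the choice of sites. Regulatory elements of developmental genes can lie in groups across a locus or singly at a distance from other elements.

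Both immunoprecipitation replicates share 1 list of peaks, so no value below has a replicate error and no test was made. Each peak has a position in the dm3 build and a score deposited by the authors, and the sources used here do not define that score. No read counts enter the values below, and the depth that each peak rests on is unknown. Intervals of shares (Wilson) and of medians (binomial order statistics) are at the 95% level, cover counting error only and treat peaks as independent, which neighbouring peaks are not. A dm3 genome and gene annotation were not used here, so the peaks are named by position and no gene or sequence is assigned to them.

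The remaining 7628 autosomal peaks were of 2 kinds, which serve for comparison. In 2306 peaks, called one-sided here, the adjacent peak on 1 side lay more than 15 kb away or was missing at the end of the arm, while the other side had a neighbour within 15 kb. The other 5322 peaks, called grouped here, had a neighbour within 15 kb on both sides. Isolated peaks made up 6.43% of the peaks of 2L (115 of 1789), 6.38% of those of 3R (148 of 2318), 6.07% of those of 3L (133 of 2190) and 5.42% of those of 2R (99 of 1826). The intervals of these 4 shares overlapped, from 4.47% at the lower end on 2R to 7.66% at the upper end on 2L. Per Mb between the first and the last peak of an arm, 3L had 5.44 isolated peaks, 3R had 5.31, 2L had 4.998 and 2R had 4.68.

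Isolated peaks were narrower than the other autosomal peaks, and their scores were spread over nearly the same values. Their median width was 558 bp (interval 522 to 598), against 648 bp (637 to 660) for the other peaks, and these intervals did not overlap. One-sided peaks lay between, with a median of 611 bp (593 to 630), and grouped peaks had a median of 665 bp (652 to 679). The narrower width was not particular to isolated peaks. The 390 other peaks with their nearest midpoint at 10 to 15 kb had a median of 569 bp (536 to 603), close to the isolated one. The median score was 25.6 (23.7 to 27.6) for isolated peaks and 25.5 (25.04 to 25.98) for the others, and here the narrower interval lay inside the wider one. When every isolated peak was set against every other autosomal peak, the isolated one was the wider in 42.3% of pairs and the higher-scoring in 50.7%. Against one-sided peaks alone the isolated one was the wider in 44.96% of pairs, and against grouped peaks in 41.2%.

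**Figure D1:**
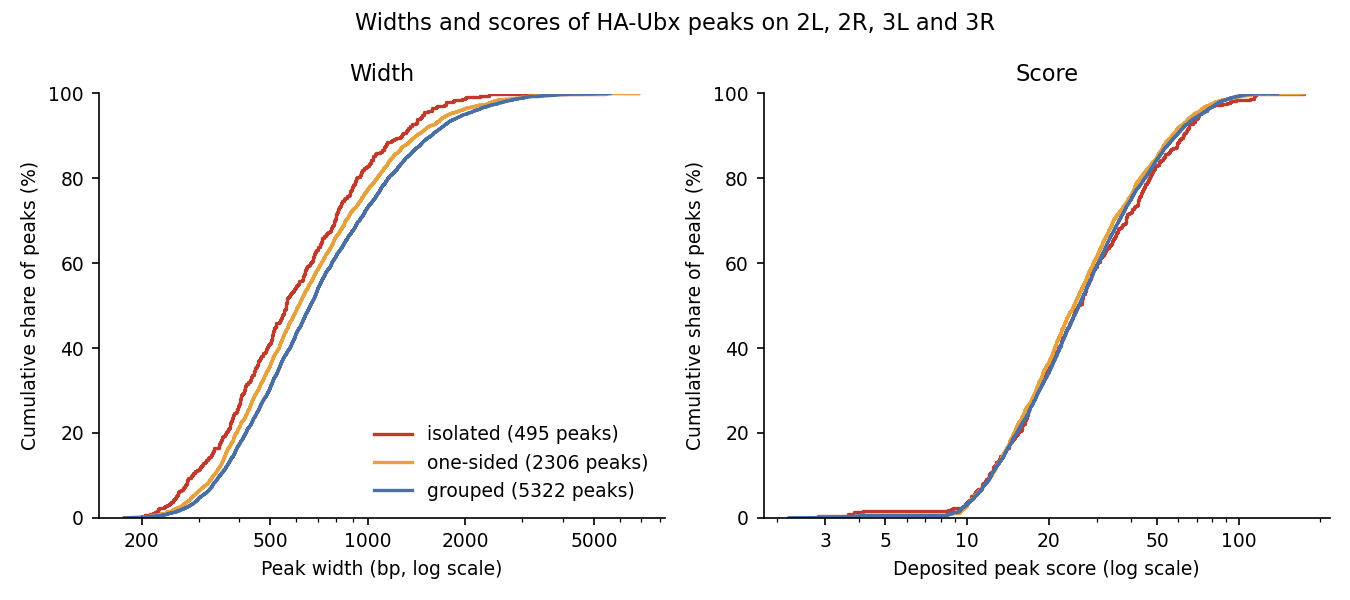
Cumulative share of peaks (vertical axis, %) by peak width in bp (left) and by deposited score (right), both on log scales, for isolated, one-sided and grouped peaks of the 4 arms. The width curve of the 495 isolated peaks lies to the left of the others, with a median of 558 bp against 611 bp and 665 bp, while the score curves nearly coincide.

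The width difference showed in both tails. Of the isolated peaks, 11.3% were narrower than 300 bp (56 peaks, 8.82% to 14.4%), against 5.01% of the others (382 peaks, 4.54% to 5.52%). At the other end, 17.2% of isolated peaks measured 1000 bp or more (85 peaks), against 25.6% of the others (1955 peaks), and 1.21% measured 2000 bp or more (6 peaks), against 4.54% (346 peaks). The interquartile range of width was 393 to 844 bp for isolated and 446 to 1013 bp for other peaks.

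The size of the width difference varied by arm, and the variation was not tested. On 2L the median was 513 bp for isolated and 607.5 bp for other peaks, on 3L it was 542 against 663 bp, and on 3R 579 against 667 bp. On 2R the medians were 646 bp (552 to 772) and 659 bp, and 26 of its 99 isolated peaks measured 1000 bp or more. The isolated peak was the wider in 47.6% of pairs on 2R, and in 40.2% to 41.9% of pairs on the other 3 arms. Median scores of isolated peaks ran from 22.9 on 2R to 27.7 on 2L, with overlapping intervals (19.1 to 26.7 and 23.7 to 32.0). The score comparison had no common direction, since the isolated peak was the higher-scoring in 52.9% of pairs on 2L and on 3R, in 49.2% on 3L and in 47.1% on 2R.

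Isolated peaks had the lower median width at every level of score, though not always beyond the interval. The autosomal peaks were cut into 4 classes of equal size by score. In the lowest class (up to 16.7), isolated peaks had a median width of 456 bp (394 to 556) and the others 545 bp. In the next class the medians were 558 (483 to 679) and 609 bp, and in the third 561 (509 to 645) and 673 bp. In the highest class (over 40.1), isolated peaks had a median of 642.5 bp (561 to 742) and the others 760 bp. The interval included the median of the others in the lowest and the next class, but not in the third and the highest. The isolated peak was the wider in 39.8% to 44.5% of pairs within these classes. Within 4 such classes of width the isolated peak had the higher score in 49.8% to 53.1% of pairs.

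Combinations of width and score shifted in the same way. Peaks narrower than the autosomal median of 642 bp and above its median score of 25.5 made up 27.3% of isolated peaks (135 peaks, 23.5% to 31.4%) and 21.1% of the others (1610 peaks, 20.2% to 22.0%). Wide peaks with a score above the median were 23.03% of isolated (114 peaks, 19.5% to 26.9%) and 28.9% of other peaks (2201 peaks, 27.8% to 29.9%). The largest class of isolated peaks was narrow with a score up to the median, with 31.1% (154 peaks) against 28.3% of the others (2156 peaks). Wide peaks with such scores were 18.6% and 21.8%. Among one-sided peaks alone 23.6% were narrow with a score above the median. Across peaks, score and width rose together weakly in both sets, with a Spearman rho of 0.18 over the 495 isolated and 0.21 over the 7628 other peaks. These are descriptions across regions of the same libraries. Among isolated peaks the rho was 0.33 on 3L, 0.27 on 2L, 0.12 on 3R and 0.04 on 2R.

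**Figure D2:**
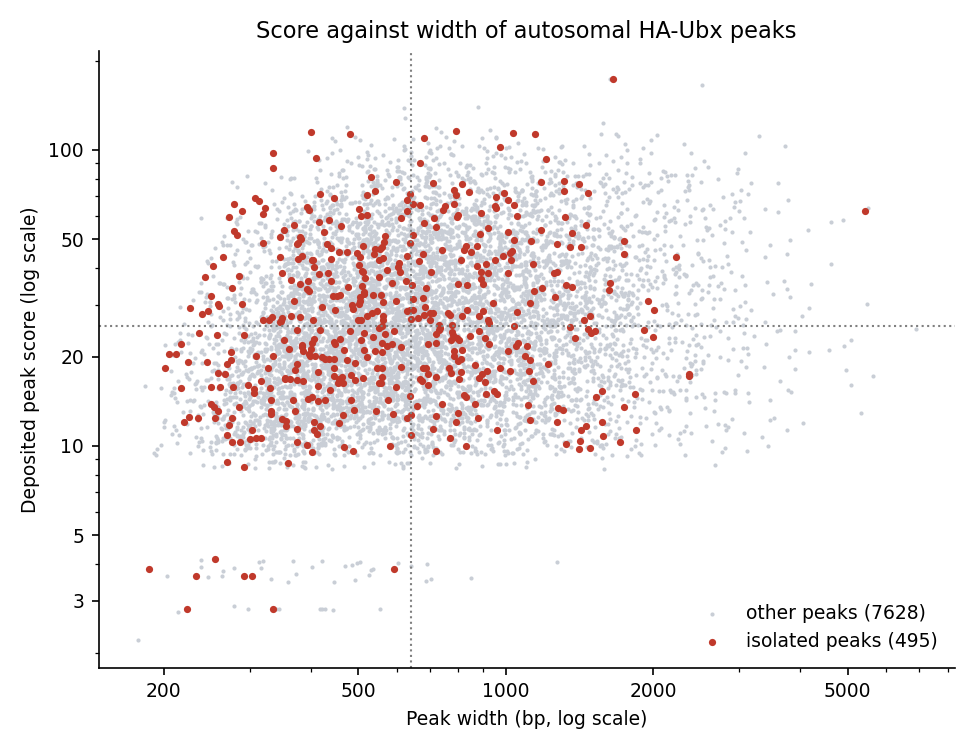
Deposited score against peak width in bp, both on log scales, for the isolated peaks (red) and the other autosomal peaks (grey). Dotted lines mark the autosomal medians of 642 bp and 25.5. Isolated peaks are spread over the same range of scores, with few at widths of 2000 bp or more, and a separate band of peaks scores under 5.

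The distance to the nearest neighbour ran from 15.01 to 149 kb among isolated peaks, with a median of 22.2 kb and quartiles of 17.9 and 31.0 kb. There were 184 isolated peaks with the nearest midpoint at 15 to 20 kb, 176 at 20 to 30 kb, 87 at 30 to 50 kb and 48 beyond 50 kb. Median width in these 4 classes was 629 bp (552 to 688), 560.5 bp (522 to 628), 486 bp (403 to 637) and 492.5 bp (411 to 598). Over the 495 peaks the Spearman rho of distance and width was -0.15, and it was negative on each arm, from -0.18 on 2R to -0.12 on 2L and 3L. Scores showed no such order, with medians of 27.2, 24.0, 24.5 and 27.4 and a rho of -0.04.

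Below the isolation distance, width and distance had no single order. The rho of distance and width was 0.10 over the other 7628 peaks, 0.17 over grouped and 0.02 over one-sided peaks. Peaks with their nearest midpoint at 1 to 2 kb had a median width of 785 bp, those at 2 to 5 kb 672 bp, those at 5 to 10 kb 666 bp and those at 10 to 15 kb 569 bp. Peaks with a midpoint within 1 kb had a median of 512 bp, and 2 separate peaks so close together cannot both be wide. Median width was thus higher at 15 to 20 kb, with 629 bp (552 to 688), than at 10 to 15 kb (536 to 603), but these intervals overlapped. The 44 isolated peaks at 15 to 16 kb had a median width of 611.5 bp and a median score of 24.3, and the 57 peaks that missed the limit, at 14 to 15 kb, had 564 bp and 28.1. The members just inside it were a peak at chr3L:11579728-11580635 (nearest midpoint 15.01 kb, score 23.2, 908 bp), one at chr3R:12199885-12200258 (15.03 kb, 24.7, 374 bp) and one at chr2R:15177222-15178005 (15.04 kb, 65.5, 784 bp). Just outside it were peaks at chr3L:6510075-6510577 (14.99 kb, 13.2, 503 bp), at chr2R:16490521-16491469 (14.95 kb, 75.2, 949 bp) and at chr3R:2718764-2719407 (14.95 kb, 25.1, 644 bp).

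**Figure D3:**
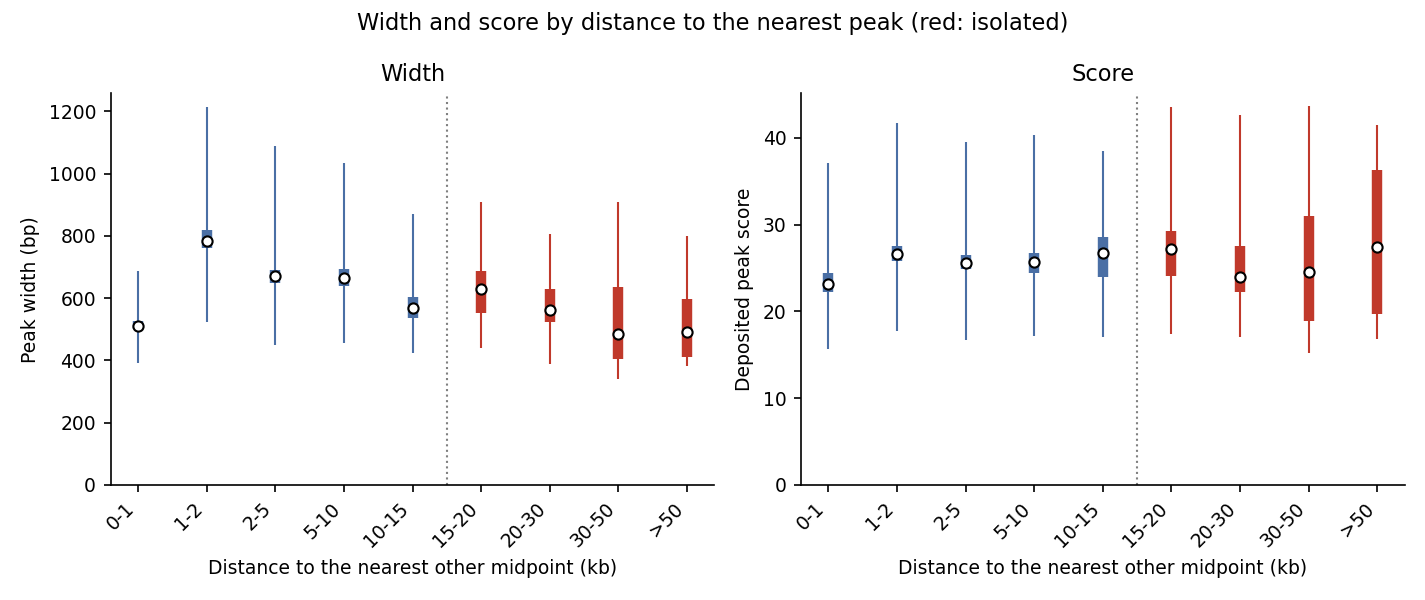
Width in bp (left) and deposited score (right) of all autosomal peaks by distance in kb to the nearest other midpoint. Circles are medians, thick bars their 95% intervals, thin lines the interquartile ranges, and red marks the isolated classes. Median width is 785 bp at 1 to 2 kb, 569 bp at 10 to 15 kb, 629 bp at 15 to 20 kb and 492.5 bp beyond 50 kb, while median scores stay between 23.1 and 27.4.

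The isolated peaks included some of the highest scores of the list. Scores of 100 or more were reached by 8 isolated peaks (1.62%, 0.821% to 3.16%) and 51 others (0.669%, 0.509% to 0.878%), and the 2 intervals overlapped slightly. The highest of the 4 score classes held 27.9% of isolated and 24.8% of other peaks. The strongest isolated peak, at chr3R:26667343-26669003, scored 174 and measured 1661 bp, and its nearest neighbour, at 26.1 kb, scored 9.72. It was first in rank among all autosomal peaks, a place it shared with a one-sided peak of equal score. The second, at chr3R:2862725-2863517, scored 116 over 793 bp.

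The 10 highest-scoring isolated peaks ranged in width from 334 to 1661 bp, and both narrow and wide peaks were among them. A peak of 401 bp at chr2L:19887494-19887894 scored 115 and ranked 13 among all autosomal peaks by score. The next isolated peak on the same arm, at chr2L:19915285-19915693 and 27.4 kb further along, measured 409 bp and scored 93.7. On 3R a peak of 481 bp at chr3R:13057294-13057774 scored 114 with its nearest midpoint 79.9 kb away, and a peak of 334 bp at chr3R:2534601-2534934 scored 97.9. Peaks at chr3R:12528392-12529425 (1034 bp) and at chr2L:12586754-12587900 (1147 bp) both scored 114. A peak at chr2L:5403484-5404165 (682 bp) scored 110.04 and a peak at chr2R:18157714-18158689 (976 bp) scored 102. Of the 8 isolated peaks scoring 100 or more, arm 3R held 4, arm 2L 3, arm 2R 1 and arm 3L 0, and the highest isolated score on 3L was 90.5.

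The widest isolated peak was an exception in size. It measured 5418 bp, at chr2R:2515413-2520830, scored 62.2 and ranked 5 in width among all autosomal peaks. Its midpoint lay 15.1 kb from the nearest other, but the gaps beside its edges were 13.8 and 11.6 kb, so it would not count as isolated if distances were taken between edges. The next in width were peaks of 2370 bp at chr2R:13757564-13759933, 2367 bp at chr3L:4900856-4903222, 2228 bp at chr3R:27105118-27107345 and 2010 bp at chr2R:14194437-14196446, with scores of 17.2, 17.5, 43.6 and 28.8. The narrowest was a peak of 187 bp at chr2L:11300001-11300187 with a score of 3.84. The other 4 narrowest peaks, at chr3R:91775-91975, chr3R:1264565-1264769, chr2L:4224174-4224385 and chr2L:6527020-6527236, measured 201 to 217 bp and scored 18.3 to 22.1.

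Scores fell into 2 ranges separated by an empty stretch. No autosomal peak scored between 4.14 and 8.36, and 51 scored under 5. Of these, 8 were isolated, which is 1.62% of isolated peaks (0.821% to 3.16%), against 43 of the others (0.564%, 0.419% to 0.758%). The 8 isolated ones lay on 3L (3), 3R (3) and 2L (2), with widths from 187 to 591 bp and a median of 273.5 bp, against 418 bp for the other 43. Exact repeats of a score were frequent, since 44.6% of isolated peaks (221) carried a score that at least 1 other autosomal peak had to all its decimals, against 34.0% of the others (2592). In the narrowest of the 4 width classes these shares were 56.9% and 41.4%, and in the widest 30.6% and 25.8%. A score with more than 5 decimals, as an average of several values would give, was found in 17 isolated peaks (3.43%) and 240 others (3.15%). Those 17 had a median width of 1459 bp and a median score of 15.03.

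Isolated peaks were over-represented at the centromeric ends of 3 arms. Positions count up towards the centromere on 2L and 3L and lead away from it on 2R and 3R. Distances were taken to that end of the arm's own sequence, not to the centromere itself. The last peak's end stood for the end of 2L and of 3L, and peaks on other sequences of the list were not included. Within 1 Mb of these ends lay 31 isolated peaks, or 6.26% of the 495 (4.45% to 8.75%), against 132 of the other peaks, or 1.73% (1.46% to 2.05%). One-sided peaks lay between, with 64 there (2.78%, 2.18% to 3.53%), and grouped peaks had 68 (1.28%, 1.01% to 1.62%). Peaks were sparse there, and sparse peaks are isolated more often by the rule itself, so these shares describe place and are no separate property. On 3L 10 of the 20 peaks in this window were isolated, on 2R 8 of 25 and on 2L 7 of 29. On 3R the window held 89 peaks, of which 6 were isolated (6.74%), close to the 6.38% over that arm.

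Beyond the first Mb the share fell quickly. Over the 4 arms it was 19.0% within 1 Mb of the centromeric end (13.7% to 25.7%), 7.56% at 1 to 2 Mb, 6.89% at 2 to 5 Mb and 4.03% at 5 to 10 Mb (3.22% to 5.03%), and then 5.94% at 10 to 20 Mb and 6.85% beyond 20 Mb. In the 1 Mb at the telomeric ends lay 22 of the 495 isolated peaks (4.44%) and 360 of the other 7628 (4.72%). Along the arms there was a median of 5 isolated peaks per complete 1 Mb bin, and 2 of 95 bins had 0. The fullest bin, with 12 isolated peaks, lay 2 to 3 Mb from the centromeric end of 2R. The median distance to the centromeric end was 12.4 Mb for isolated and for other peaks.

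**Figure D4:**
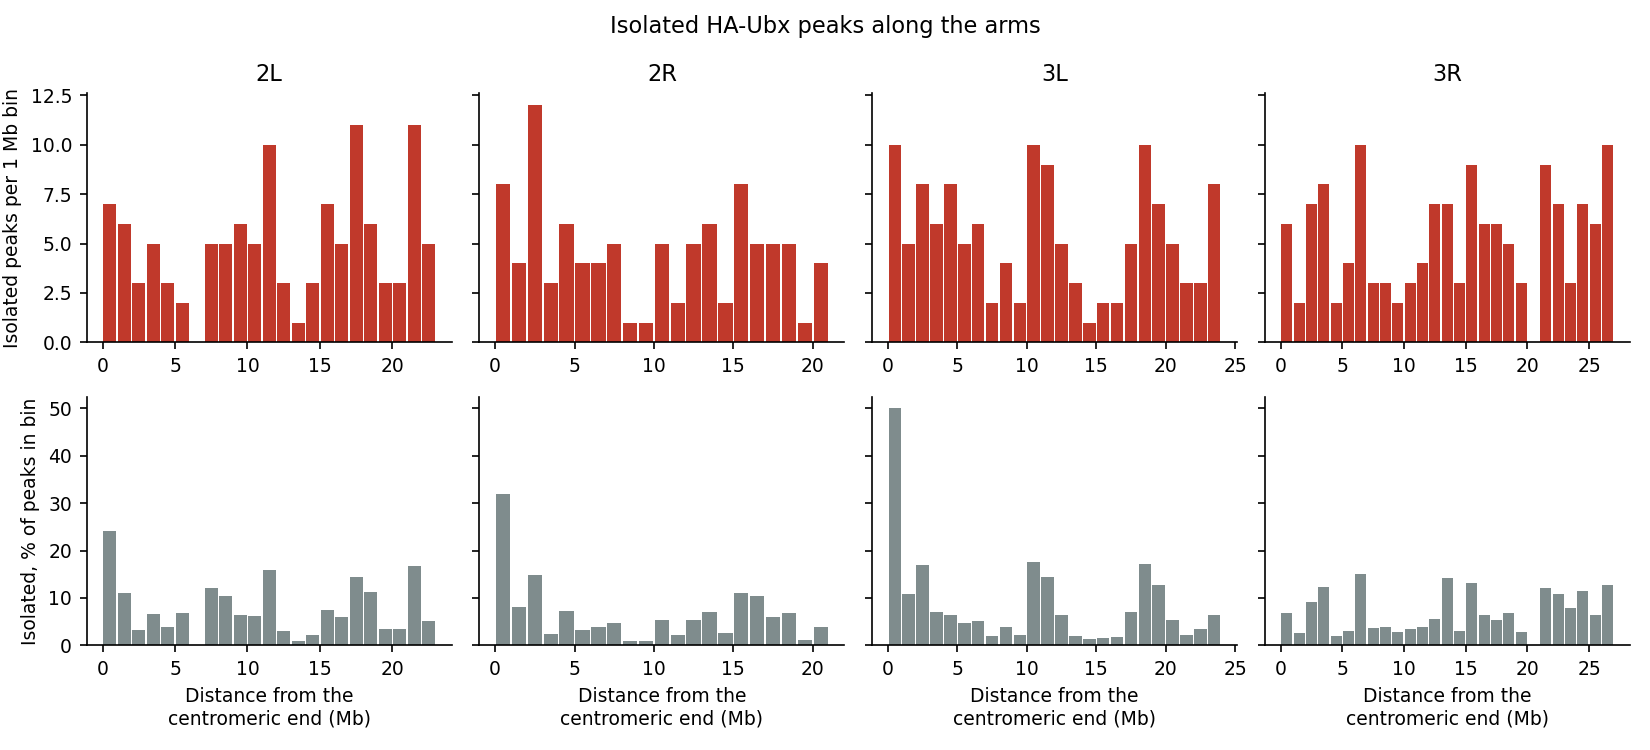
Number of isolated peaks per complete 1 Mb bin (top) and their share of all peaks in the bin in % (bottom) against distance from the centromeric end of each arm in Mb. The share is highest in the first bin of 2L (24.1%), 2R (32%) and 3L (50%), and 6.74% in that of 3R.

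Near the centromeric ends the pooled medians of score were close, but those by arm were not on 3 of the 4 arms. Within 1 Mb the 31 isolated peaks had a median score of 22.3 (16.5 to 34.1) and a median width of 483 bp (354 to 640), against 21.8 and 519 bp for the 132 others. Outside these windows the 464 isolated peaks had a median of 559 bp against 652 bp, a difference about as large as that over whole arms. Values by arm rest on few isolated peaks. On 3L the 10 isolated peaks of the window had a median score of 14.7, against 14.8 for the others there. On 2R the medians were 29.2 for 8 isolated and 19.1 for other peaks, and on 2L 32.0 for 7 isolated and 19.0 for other peaks. On 3R they were 30.4 for 6 isolated and 25.003 for the 83 other peaks, so most of the other peaks of these windows came from 3R. Median widths in these windows were 560 bp for isolated and 571.5 bp for other peaks on 2L, and 492 and 495 bp on 2R. On 3L the isolated peaks were the wider, with 433.5 against 407.5 bp, and on 3R the medians were 408.5 and 528 bp.

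The isolated peaks nearest to each end lay at chr2L:22874453-22875341 (score 36.7, 889 bp), chr2R:54325-55018 (16.1, 694 bp), chr3L:24457513-24457958 (17.2, 446 bp) and chr3R:91775-91975 (18.3, 201 bp). Strong isolated peaks also lay within the windows, such as a peak of 1471 bp at chr2R:977790-979260 with a score of 71.7. On 3R a peak of 334 bp at chr3R:952638-952971 scored 86.7. Both were singled out after their values were seen.

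Isolated peaks formed chains. Of the 495, 262 (52.9%) had another isolated peak as an adjacent peak, in 104 chains of 2 or more. There were 70 chains of 2, 22 of 3, 9 of 4, 2 of 6 and 1 of 8, and the peaks next to the remaining 233 isolated peaks were one-sided. Such chains come with the number of isolated peaks. Of the 989 free sides of isolated peaks, that is sides with the next midpoint over 15 kb away, 316 faced another isolated peak (32.0%), and isolated peaks had 30.1% of the 3288 free sides of all autosomal peaks. The longest chain spanned 416 kb at the centromeric end of 3L (chr3L:23800580-24216880). Its 8 peaks scored 10.1 to 38.1 with a median of 13.1, and 5 of them measured 272 to 421 bp. The chain of 6 at chr2R:2153633-2388056 had scores of 13.8 to 43.9 with a median of 18.7.

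The other chain of 6 lay far from a centromere, at chr2L:5341057-5503234. Its peaks, in order along the arm, scored 24.03, 19.2, 110.04, 28.1, 76.6 and 47.1, with widths of 1493, 224, 682, 700, 816 and 558 bp. Strong and weak isolated peaks were thus neighbours within 162 kb. A chain of 4 at chr2R:358237-676747 held 3 peaks of 259 to 276 bp, which scored 13.2, 29.7 and 34.1, and 1 peak of 640 bp, which scored 10.9.

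A comparison with the next peak along the arm is more local than one over whole arms. The nearest neighbour still lay a median of 22.2 kb and up to 149 kb away, and it was never a grouped peak. An isolated peak outscored its nearest neighbour in 274 of 495 cases (55.4%, 50.9% to 59.7%), and the median difference was 1.80 score units. In 136 of these cases the nearest neighbour was itself isolated, and 102 isolated peaks were each other's nearest, so that each such pair counts once above and once below. In the other 359 cases, with a one-sided nearest neighbour, the isolated peak was the higher in 206 (57.4%, 52.2% to 62.4%). Against the farther of its adjacent peaks the isolated peak was higher in 246 of 494 cases (49.8%, 45.4% to 54.2%), and this interval overlapped that for all nearest neighbours. By arm the share above the nearest neighbour was 58.3% on 2L, 57.1% on 3L, 54.5% on 2R and 52.03% on 3R, and the interval of each arm included 50%. Among one-sided peaks 50.2% (48.2% to 52.3%) outscored their nearest neighbour, and among grouped peaks 49.98% (48.6% to 51.3%). Single pairs differed widely, and this spread was not computed for the other peaks. The isolated peak had at least 2 times the score of its nearest neighbour in 129 cases and at most 0.5 times in 113. It was wider than that neighbour in 234 of 495 cases (47.3%, 42.9% to 51.7%), with a median difference of -24 bp. On 2R it was wider in 54 of 99 cases (54.5%), with a median difference of 44 bp, and on the other arms in 43.6% to 47.3%.

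The gaps around isolated peaks were uneven. The smaller gap between edges had a median of 21.5 kb. The larger one had a median of 49.2 kb and quartiles spanning 29.96 to 81.2 kb. The median ratio of the larger to the smaller gap was 1.88, with quartiles of 1.35 and 2.80. Gaps with an isolated peak at 1 end or both numbered 831 and spanned 36.3 Mb, or 37.6% of the length between the first and last peaks of the arms. The isolated peaks themselves covered 338 kb. One isolated peak, at chr3L:59762-60781, was the first of its arm and had a neighbour on 1 side only.

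**Figure D5:**
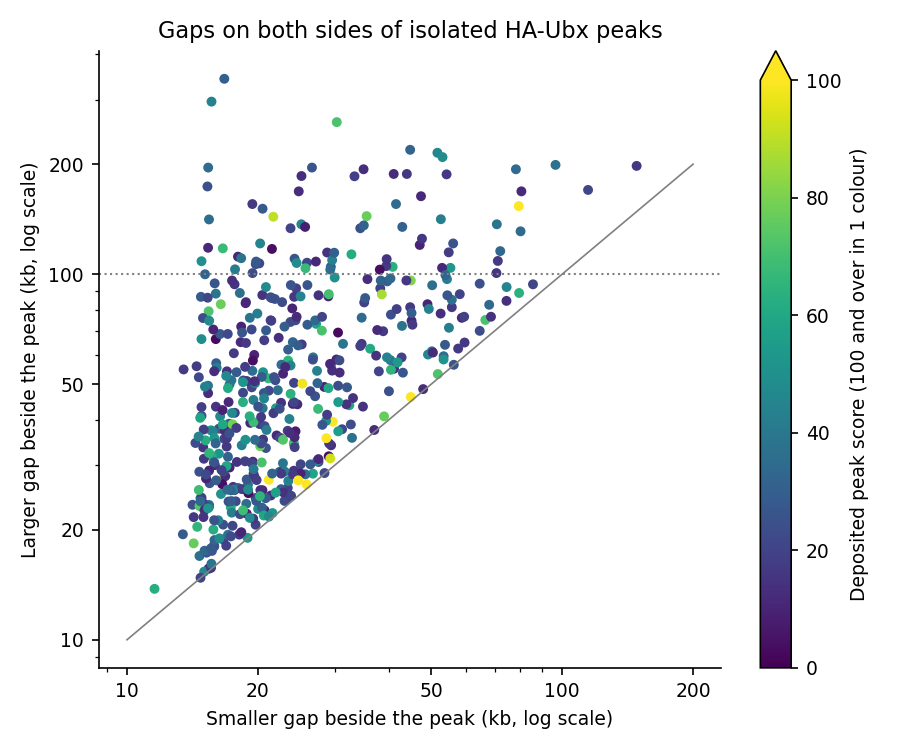
Larger against smaller gap in kb beside each isolated peak with a neighbour on both sides, on log scales, coloured by deposited score. The solid line marks equal gaps and the dotted line 100 kb. Of all isolated peaks 74 border a gap of at least 100 kb, and the peaks scoring 100 or more lie at larger gaps of 26.6 to 154 kb.

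Isolated peaks bordered the long peak-free stretches more often than one-sided peaks did. A stretch of at least 100 kb between peak edges lay beside 74 isolated peaks (14.9%, 12.1% to 18.4%) and beside 124 one-sided peaks (5.38%, 4.53% to 6.37%). Isolation gives a peak 2 free sides, so the shares were also taken per free side. Of 989 free sides of isolated peaks 76 opened on such a stretch (7.68%, 6.18% to 9.51%), and of 2299 free sides of one-sided peaks 124 did (5.39%, 4.54% to 6.39%), with slightly overlapping intervals. At a minimum of 50 kb the shares per side were 29.4% (26.7% to 32.3%) and 20.2% (18.6% to 21.9%), which did not overlap. The gaps lengthened with the number of isolated peaks at their ends. The median was 26.5 kb for the 813 gaps over 15 kb between midpoints with 0 isolated ends, 28.6 kb for the 673 with 1 and 37.2 kb for the 158 with 2. The rule itself selects on distances between peaks, and counting per free side does not remove this. The shares and gap lengths here and below thus describe place and are no separate property.

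By arm, 24 of the 115 isolated peaks of 2L bordered a stretch of at least 100 kb (20.9%), against 12.8% to 13.5% on the other 3 arms. Of the 100 stretches of this length on the 4 arms, 63 had an isolated peak at an end, against 831 of all 1644 gaps over 15 kb between midpoints (50.5%). Scores beside them were close to those elsewhere. The 74 isolated peaks had a median score of 26.6 (21.2 to 33.4), against 25.4 (23.4 to 27.6) for the 421 others. Their median width was 474 bp (414 to 629), against 561 bp (536 to 625). For one-sided peaks the widths were 573.5 bp (502 to 672) beside such a stretch and 615 bp (595 to 634) away from one.

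Among the 5 longest stretches, 3 had an isolated peak at an end. The longest, 342 kb at chr3L:13496058-13838459, ended at an isolated peak of 289 bp with a score of 30.1. A stretch of 297 kb at chr2L:17824692-18121234 ended at an isolated peak of 986 bp that scored 44.0. The third, 261 kb at chr2R:717135-977789, ended at the isolated peak of 1471 bp that scored 71.7. The stretches of 332 kb at chr2L:16910403-17242411 and of 259 kb at chr3R:18620015-18878764 lay between one-sided peaks.

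The most remote peaks were of mixed strength. The farthest from any other midpoint was a peak of 598 bp at chr3L:23530316-23530913, at 149 kb, with a score of 15.9. Next came a peak of 813 bp at chr2L:4068103-4068915, at 115 kb, with a score of 21.2, and these 2 were the isolated peaks with a stretch of at least 100 kb on both sides. A peak of 285 bp at chr3L:17235273-17235557, at 96.9 kb, scored 37.5. The remaining 7 of the 10 most remote lay 75.2 to 86.1 kb from the nearest midpoint. The peaks at chr3R:3469189-3469573 and chr3L:24021340-24021611 scored 20.95 and 11.7. Scores of 34.7 at chr3R:16289958-16290466, 34.1 at chr2R:482531-482806 and 45.4 at chr2L:22353792-22354823 were higher. A peak at chr3L:20614641-20615597 scored 63.9, and the peak of 481 bp on 3R that scored 114 was also among the 10.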

How the data were processed

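Peaks of HA-Ubx were taken from the 1 list that the descriptions of both immunoprecipitation samples name. The submitters' processing notes name BWA 0.7.12, MACS2 and the build dm3, with no roles. The joining of replicates, the use of the input and the thresholds are not stated in these sources. The score of each peak is used as the authors deposited it, with no header to say what it is. The list uses 8 sequence names that the Release 6 gene table does not, so no Release 6 coordinate was used with it.

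Starts were converted to 1-based positions. Isolation, neighbours, gaps and widths were computed with Python 3.11.15, numpy 2.4.6, scipy 1.17.1 and pandas 2.3.3, and figures with matplotlib 3.10.9. The calculation of classes and pair shares was tested on simulated lists. Peaks named in the text are the 10 highest-scoring, the 5 widest, 5 narrowest and 10 most remote members, the member nearest each centromeric end, 3 peaks on each side of the isolation limit, and those at the 5 longest stretches. Peaks of the longest chains, 2 strong peaks near centromeric ends and the isolated peak at an arm's end were named after their values were seen. The members, comparisons and this list were chosen with earlier results of these data known. Sequence, base composition and genes were not analysed here, since they need dm3.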

Additional observations from a re-analysis of the deposited data

How the results depend on the processing

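The narrower width and the level score kept their direction or closeness in each setting run. The isolated peak was the wider in 39.7% to 43.7% of pairs and the higher-scoring in 49.0% to 51.3% over 8 alternatives each, against 42.3% and 50.7%. Of 63 recalculated values, 50 stayed within the interval of the reported value or, for the number of peaks, within 1.5 times, and 13 did not. For the shares of pairs the limits used were 38.1% to 46.8% (wider) and 46.3% to 55.1% (higher-scoring). They take the 495 isolated peaks as the trials, which a share of pairs does not have, so they are limits of convenience only. At an isolation distance of 10000 bp there were 885 isolated peaks, with 4.41% in the 1 Mb at the centromeric ends and 9.72% at a peak-free stretch. At 20000 bp there were 311, with 20.3% at a stretch. Choosing the members within the 50% of peaks with the highest score gave a median score of 40.2 (40.1 for the others), a median width of 639.5 bp (719.5), 3.69% at the centromeric ends (1.21%) and 24.6% at a stretch. This setting keeps high scores and lengthens gaps by construction. Joining peaks less than 1000 bp apart gave a median width of 682 bp, against 803.5 bp for the others. In the 2 Mb at the centromeric ends lay 9.70% of isolated and 4.46% of other peaks, with 6.33% of one-sided peaks alone. A stretch of at least 50 kb bordered 49.1% of isolated and 20.2% of one-sided peaks. Against the mean score of both neighbours the isolated peak was higher in 49.3% of cases, in place of 55.4% against the nearest, and the cause was not tested. These shares are unlike measures, since a mean of scores had a median of 28.2 and the single nearest score a median of 23.7. Leaving out peaks with visibly averaged scores, and the nearest-neighbour values under other settings, were chosen after seeing the data. No replicate could be left out, because both share 1 list, and the depth was not given. No paired analysis was possible because both samples have a common list.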
